A study of Homo sapiens with 10 samples.

Results

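Expression of p53-responsive genes that act in cell death, cell survival and autophagy was followed in BJ cells by RNA-Seq and Ribo-Seq. BJ cells are human primary fibroblasts, here immortalised by expression of hTERT, the catalytic subunit of telomerase. The 9 genes were chosen by symbol, as known effectors of p53 and with earlier results of these data known. They are TP53INP1, ZMAT3, PHLDA3, AEN, TRIAP1, PERP, DRAM1, SPATA18 and EI24. A row was found in both tables for 8 of them, out of 11258 transcripts in both and 13358 in all. AEN, an exonuclease, was not analysed here.

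There were 10 groups of 1 library each. In either assay, 1 library came from untreated control cells and 1 each from cells kept on nutlin-3a for 2, 4, 6 and 19 h. Nutlin-3a is a small molecule that blocks the binding of the ubiquitin ligase MDM2 to p53, so that p53 accumulates. All groups shared the cell line, its hTERT transgene and the culture medium, and a vehicle control is not named in the labels. RNA-Seq measured poly(A) RNA, and Ribo-Seq measured the mRNA fragments that ribosomes protect from nuclease in cells treated with cycloheximide. Values are FPKM, fragments scaled to the length of the transcript and the size of the library. The FPKM of Ribo-Seq is called ribosome density below. A single transcript length fitted both assays for the genes described, so Ribo-Seq levels of different genes may also reflect their untranslated parts. The paper's read statistics list unlike coding-sequence shares for its nutlin-3a Ribo-Seq libraries at 6 and 19 h and the control beside them. They also list fewer reads in the main reading frame there than in its other Ribo-Seq libraries. Changes in density over time may therefore be affected too, which was not tested. As no group held a second library, no difference has a replicate check and no p-value was computed. Errors are counting errors (SE or 95% interval), from whole reads that the steps between low FPKM values gave back, and cover neither culture nor library preparation.

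p53 is a transcription factor that cells keep low by MDM2-directed degradation. When it is released, it can lead to arrest and repair, to death or to autophagy, depending on which of its target genes respond. The genes described here lie outside the best-known arrest and BCL2 branches. PHLDA3 competes with the kinase AKT for membrane lipids and so restrains a survival signal, and PERP is a membrane protein of desmosomes and of p53-dependent death. TRIAP1 is a small survival protein of mitochondria and cytosol, and ZMAT3 is a zinc-finger protein that binds RNA and influences splicing and mRNA stability. DRAM1 is a lysosomal membrane protein that promotes autophagy, SPATA18 (Mieap) acts in mitochondrial quality control, EI24 is a membrane protein of the endoplasmic reticulum linked to autophagy, and TP53INP1 binds kinases that act on p53 as well as the ATG8 proteins of autophagosomes.

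The recovered library totals were between 23845578 and 27554286 reads in RNA-Seq, and between 7744898 (19 h) and 14460723 (4 h) in Ribo-Seq. All 8 genes passed the filter on low values, which asked for 5 FPKM or more in 1 or more libraries of RNA-Seq and also of Ribo-Seq, as did 7015 genes in all. TP53INP1 (2.75 and 0.558 FPKM in the RNA-Seq and Ribo-Seq controls) and SPATA18 (2.67 and 1.1) passed only through libraries on nutlin-3a. In Ribo-Seq this also held for ZMAT3 (4.06 FPKM in the control). Some genes of the lists below, such as BTG2 and BBC3, passed in the same way. Calls of such genes as higher are not independent of the filter. A gene is called higher or lower below where its RNA or density differed at least 2-fold from the control of the same assay, or its translational efficiency (TE, density over RNA) at least 1.5-fold. All 10 fibroblast markers examined were over 5 FPKM in every RNA-Seq library. The epithelial keratins KRT8 and KRT18 were present too, at up to 14.2 and 315 FPKM, but CDH1 was at most 0.025 FPKM. The endothelial marker VWF and the immune markers PTPRC and CD14 were below 1 FPKM in RNA-Seq. EPCAM, KRT5, KRT14, PECAM1, CDH5 and CD3E, also looked for, had no value in either assay.

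Transcript levels of 6 of the 8 genes were at least 2-fold higher than in the control from 4 h on. They were TP53INP1, ZMAT3, PHLDA3, TRIAP1, DRAM1 and SPATA18, and the same 6 were called at 4, 6 and 19 h. Among all tested genes 1.41% were called higher at 4 h, 1.753% at 6 h and 2.49% at 19 h. At 2 h none of the 8 was called, against 0.927% of all tested genes. No gene was called lower at 19 h, where 7.1% of tested genes were. The median log2 RNA change of the 8 genes came to 0.25 at 2 h, then to 1.64 at 4 h, 2.00 at 6 h and 1.89 at 19 h. Over all tested genes the medians were -0.045, -0.074, -0.0024 and -0.067.

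Ribosome density was called higher for PHLDA3 alone at 2 h, where 2.12% of tested genes were. At 4 h it was higher for 5 genes (2.58% of tested genes), at 6 h for 5 (5.26%) and at 19 h for 4 (6.22%). The 5 were TP53INP1, ZMAT3, PHLDA3, TRIAP1 and SPATA18, and TRIAP1 was no longer among them at 19 h. None of the 8 was called lower in density at 19 h, against 14.9% of tested genes. The median log2 density change of the 8 was 0.073, 1.59, 1.93 and 1.58 at 2, 4, 6 and 19 h. Density over all tested genes moved too, with a median of 0.10 at 4 h and -0.19 at 19 h. A single Ribo-Seq transcript, that of ZNF354B, took 13.2% of reads in the control library and 3.08% in that of 4 h. As a check, the 2 most abundant transcripts with recovered reads were left out of each assay. Transcripts without recovered reads stayed in, so more abundant ones may remain. The log2 density change of a transcript above the floor then shifted, and TE with it. The shift was -0.14 in the 2 h library and -0.16 in that of 4 h. It was -0.13 in that of 6 h and -0.035 in that of 19 h. TP53INP1, below the floor in the Ribo-Seq control, moved otherwise, for instance from 2.59 to 2.77 at 19 h.

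**Figure D1:**
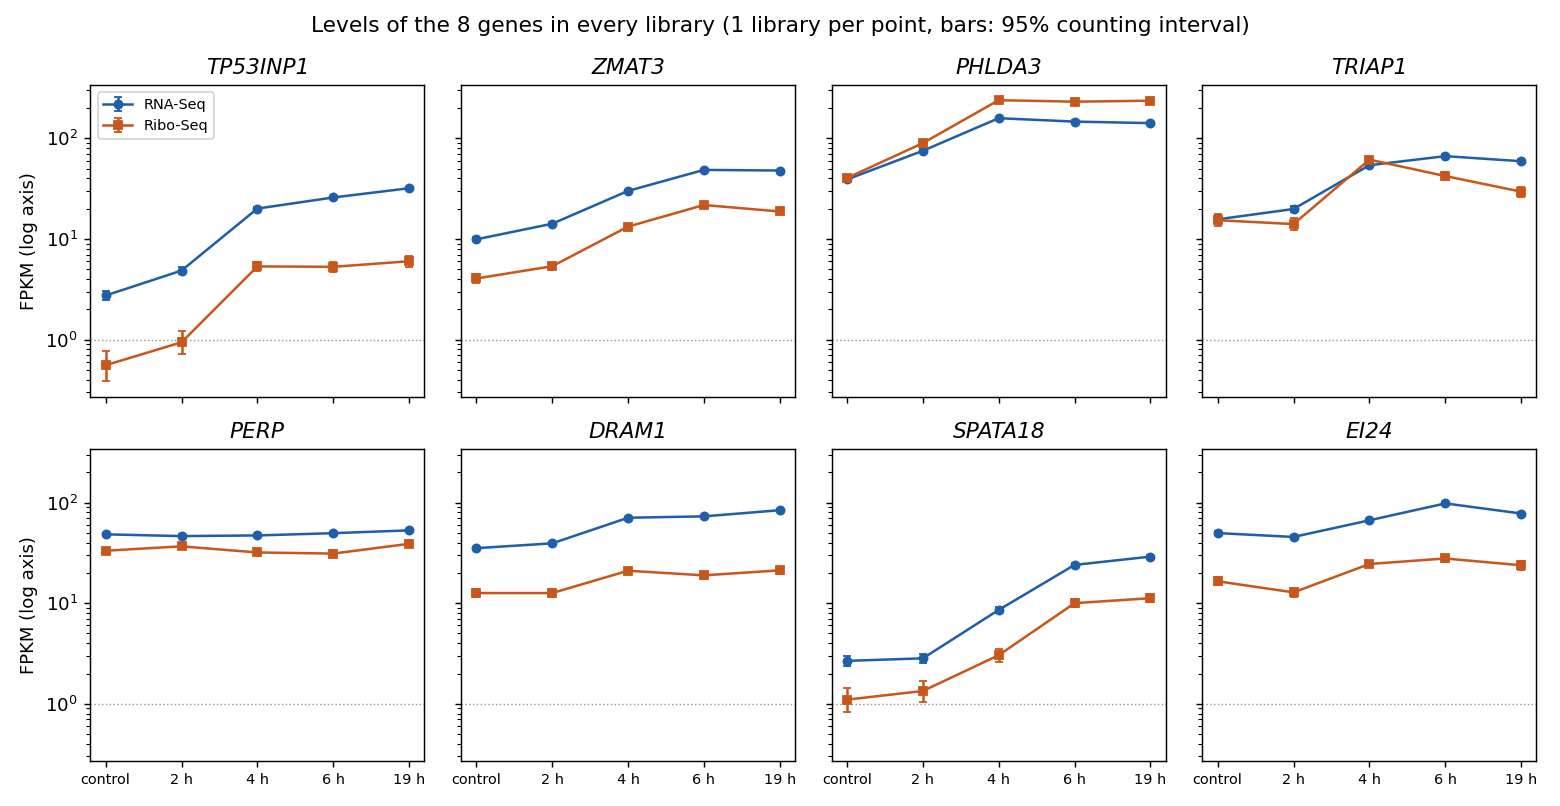
FPKM of the 8 genes (log axis) in the 5 RNA-Seq libraries (circles) and the 5 Ribo-Seq libraries (squares), with 95% counting intervals, and a dotted line at the floor of 1 FPKM. PERP stays between 46.4 and 52.9 FPKM in RNA, and SPATA18 climbs from 2.67 to 29.0 FPKM. The Ribo-Seq line of TRIAP1 turns down after 4 h, and its RNA line only after 6 h.

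PHLDA3 (ENSG00000174307), the AKT antagonist, had the largest change at 2 h, though the counting interval of its RNA change overlapped with that of TP53INP1. Its RNA-Seq level was 39.1 FPKM in the control, 75.4 at 2 h, 159 at 4 h, 147 at 6 h and 142 FPKM at 19 h. Its Ribo-Seq level was 40.4, 89.9, 240, 232 and 237 FPKM in the same order. Both assays thus reached their highest level at 4 h, and later levels stayed close to it. At 2 h RNA was 1.93-fold the control (log2 change 0.95, SE 0.046), and density was 2.23-fold (1.15, SE 0.064). By 4 h RNA stood at 4.07-fold and density at 5.93-fold. From 2 h on PHLDA3 had the highest level of the 8 genes in RNA, and it had the highest Ribo-Seq level in every library.

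PERP (ENSG00000112378), the desmosomal membrane protein, hardly moved. Its RNA-Seq level was 48.3 FPKM in the control and 46.4, 47.1, 49.6 and 52.9 FPKM at 2, 4, 6 and 19 h. In Ribo-Seq it was at 33.2 FPKM in the control and at 36.7, 31.9, 31.1 and 38.9 FPKM. Up to 6 h the 95% counting interval of the RNA change held 0. At 19 h the log2 change was 0.13 in RNA (interval 0.051 to 0.21) and 0.23 in density (0.076 to 0.38). Between the control and 19 h libraries RNA thus differed by well under 2-fold, within counting error. That error covers neither culture nor library preparation. PERP ranked among the most abundant of the 8 in the control, close to EI24 at 49.7 FPKM, whose counting interval overlapped with its own.

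TRIAP1 (ENSG00000170855), the small survival factor, differed between the assays. Its RNA-Seq level was 15.7 FPKM in the control, 19.9 at 2 h, 54.2 at 4 h, 66.7 at 6 h and 59.4 FPKM at 19 h. Its Ribo-Seq level was 15.4, 14.1, 61.6, 42.3 and 29.6 FPKM. RNA was highest at 6 h, whereas density was highest at 4 h and lower at each later time. Between 4 and 6 h the log2 change in RNA was 0.30 (SE 0.048) and that in density -0.54 (SE 0.078). Between 6 and 19 h it was -0.17 (SE 0.046) in RNA and -0.52 (SE 0.11) in density. Relative to the control, RNA at 19 h was still 3.79-fold, while density was 1.92-fold (log2 change 0.94), short of the 2-fold line. It was past that line when centred on the median of tested genes (1.14) or against the 2 h library (1.07).

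ZMAT3 (ENSG00000172667), the RNA-binding zinc-finger protein, rose in both assays alike. In RNA-Seq it was at 9.94 FPKM in the control, 14.2 at 2 h, 30.1 at 4 h, 48.7 at 6 h and 48.0 FPKM at 19 h. In Ribo-Seq it was at 4.06, 5.37, 13.3, 21.8 and 18.8 FPKM. Each assay was highest at 6 h. At that time RNA was 4.90-fold the control (log2 change 2.29, SE 0.033) and density 5.36-fold (2.42, SE 0.075). From 6 to 19 h RNA stayed within counting error (log2 change -0.019, SE 0.018), and density changed by -0.21 (SE 0.050).

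TP53INP1 (ENSG00000164938), a partner of p53 kinases and ATG8 proteins, had the largest RNA change of the 8 at 4 h, and at 6 and 19 h its counting interval overlapped with that of SPATA18, the next. Its RNA-Seq level was 2.75 FPKM in the control, 4.86 at 2 h, 20.1 at 4 h, 25.9 at 6 h and 32.0 FPKM at 19 h. In Ribo-Seq it was at 0.558 FPKM in the control, from 37 reads, and at 0.942, 5.35, 5.30 and 6.02 FPKM at 2, 4, 6 and 19 h. The RNA level thus rose at each step, and density rose steeply between 2 and 4 h and then levelled off. RNA was 11.6-fold the control at 19 h (log2 change 3.54, SE 0.078). Density in the control and at 2 h lay below the floor of 1 FPKM that was set on all values. With the floor its log2 density change at 19 h was 2.59, and without it 3.43 (95% counting interval 2.94 to 3.93), or 10.8-fold.

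SPATA18 (ENSG00000163071), the mitochondrial quality control gene, started as low and rose later. Its RNA-Seq level was 2.67 FPKM in the control, 2.83 at 2 h, 8.57 at 4 h, 24.0 at 6 h and 29.0 FPKM at 19 h. Its Ribo-Seq level was 1.1, 1.34, 3.04, 10.0 and 11.2 FPKM. At 2 h neither assay differed from the control beyond its counting interval. RNA rose by a log2 step of 1.60 (SE 0.092) from 2 to 4 h and by another of 1.48 (SE 0.055) from 4 to 6 h. At 19 h it was 10.8-fold the control in RNA (log2 change 3.44, SE 0.090) and 10.2-fold in density (3.35, SE 0.20). The density values rest on 57 reads in the control and 383 at 19 h.

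DRAM1 (ENSG00000136048), the lysosomal autophagy gene, changed less. In RNA-Seq it was at 35.2 FPKM in the control, 39.3 at 2 h, 70.6 at 4 h, 72.9 at 6 h and 83.9 FPKM at 19 h. In Ribo-Seq it was at 12.6 FPKM in the control, 12.6 at 2 h, 21.0 at 4 h, 18.9 at 6 h and 21.2 FPKM at 19 h. RNA reached 2.00-fold at 4 h, at the line for a call (log2 change 1.00, 95% counting interval 0.94 to 1.07), and 2.38-fold at 19 h. Density was 1.66-fold, 1.5-fold and 1.68-fold the control at 4, 6 and 19 h, and was not called at any time.

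EI24 (ENSG00000149547), the endoplasmic reticulum protein, was, beside PERP, the gene not called in RNA or density against the control. Its RNA-Seq level was 49.7 FPKM in the control, 45.5 at 2 h, 66.6 at 4 h, 98.0 at 6 h and 77.8 FPKM at 19 h. Its Ribo-Seq level was 16.5, 12.8, 24.5, 27.8 and 23.8 FPKM. Both assays were below the control at 2 h and above it afterwards, and both were highest at 6 h. The log2 RNA change was 0.98 at 6 h (95% counting interval 0.92 to 1.05), or 1.97-fold, and 0.65 at 19 h. The log2 density change was 0.75 (SE 0.090) at 6 h. Against the 2 h library both were past 2-fold at 6 h (1.11 in RNA and 1.12 in density), and a sliding cut-off by local SD also called the RNA at 6 h.

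**Figure D2:**
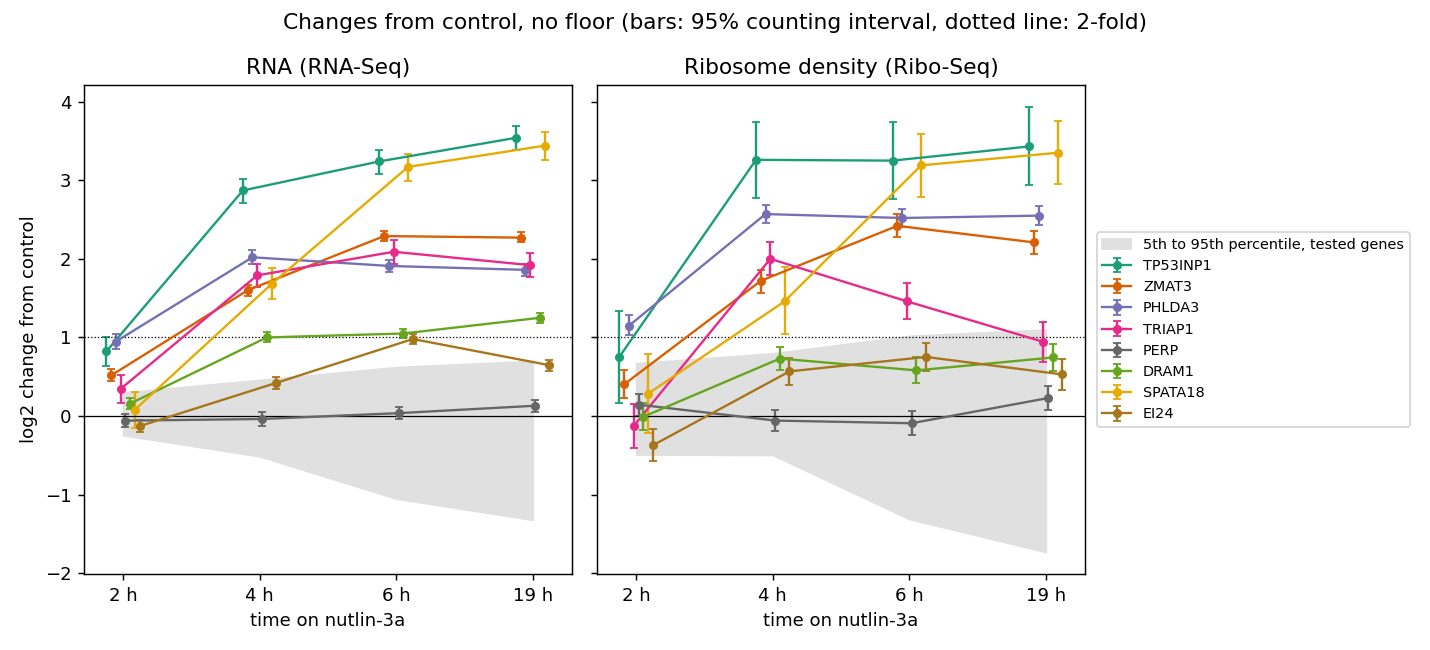
Log2 change from the control in RNA (left) and ribosome density (right) at 2, 4, 6 and 19 h of nutlin-3a, with no floor, for the 8 genes with 95% counting intervals. The grey band spans the 5th to the 95th percentile of 7015 tested genes, whose values were floored at 1 FPKM. The dotted line marks 2-fold. TP53INP1 and SPATA18 end highest in both panels, PERP lies near 0, and TRIAP1 turns from 2.00 at 4 h to 0.94 at 19 h in density.

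The timing differed among the 8 genes. For 6 of them the largest step in RNA was into 4 h. EI24 had steps of 0.55 (SE 0.036) into 4 h and 0.56 (SE 0.030) into 6 h, which counting error does not separate, and for PERP, whose steps were all small, the largest was into 19 h. PHLDA3 RNA was highest at 4 h, that of ZMAT3, TRIAP1 and EI24 at 6 h, and that of TP53INP1, PERP, DRAM1 and SPATA18 at 19 h. The pair of genes lowest in the RNA-Seq control, TP53INP1 and SPATA18, rose most in fold. The control library enters both that ranking and the fold, and the link was not tested. The highest of the 8 was 18.6-fold above the lowest in the RNA-Seq control, and 26.7-fold, 18.5-fold, 6.13-fold and 4.9-fold above it at 2, 4, 6 and 19 h. In Ribo-Seq the range was 72.4-fold in the control and 95.5-fold, 78.9-fold, 43.8-fold and 39.3-fold later. It thus widened at 2 h in both assays and was narrower than in the control at 6 and 19 h. The size of the Ribo-Seq range may also depend on how much of each transcript is untranslated.

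In order of RNA level in the control, EI24 and PERP were followed by PHLDA3, DRAM1, TRIAP1, ZMAT3, TP53INP1 and SPATA18. The counting intervals of the first 2 overlapped, as did those of the last 2. At 19 h the order was PHLDA3, DRAM1, EI24, TRIAP1, PERP, ZMAT3, TP53INP1 and SPATA18, and no neighbours overlapped. In Ribo-Seq at 19 h PHLDA3 was followed by PERP at 38.9 FPKM and TRIAP1 at 29.6 FPKM. TRIAP1, EI24, DRAM1 and ZMAT3 overlapped each with the next. This order, too, may depend on untranslated length.

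TE shows whether density changed by more or less than RNA. At 2 h 1 of the 8 genes was called in TE, in either direction, against 7.17% of tested genes. At 4 h none was called (9.95% of tested genes), and at 6 and 19 h 3 were (25.6% and 24.6%), so that calls in TE were common among all genes at these times. The 3 were PHLDA3, TRIAP1 and TP53INP1, and the gene called at 2 h was TP53INP1. The median log2 TE change of the 8 was -0.14, 0.048, -0.18 and -0.10 at 2, 4, 6 and 19 h, where all tested genes had medians of 0.045, 0.18, 0.0021 and -0.067.

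PHLDA3 was above the control in TE at every time and was called at 6 and 19 h. Its log2 TE change was 0.21 (SE 0.079) at 2 h, 0.54 (SE 0.071) at 4 h, 0.61 (SE 0.072) at 6 h and 0.69 (SE 0.074) at 19 h. The last is 1.61-fold and exceeded the change of 94.1% of tested genes. Without the 2 most abundant transcripts with recovered reads the call at 6 h was lost (0.48). The change at 2 h was then 0.068, within its counting error. The calls at 6 and 19 h were both lost against the 2 h library (0.40 and 0.48). TRIAP1 lay below the control except at 4 h and was called lower at 6 and 19 h. Its log2 TE change was -0.47 (SE 0.17) at 2 h, 0.21 (SE 0.13) at 4 h, -0.63 (SE 0.14) at 6 h and -0.98 (SE 0.15) at 19 h, when 4.49% of tested genes were lower. Against the 2 h library these 2 calls were lost as well (-0.16 and -0.51), and 4 h was called higher (0.68). The difference between PHLDA3 and TRIAP1 in log2 TE change at 19 h was 1.67 (95% counting interval 1.34 to 2.00). Their RNA changes differed by -0.062 (-0.23 to 0.11). These 2 genes had the highest and the lowest TE change of the 8 at 19 h, so a large difference follows from the choice of pair. Both are short transcripts, of 1531 and 1182 nt. The tenth of tested transcripts by length that holds both had a median log2 TE change of -0.12 at 6 h and -0.16 at 19 h.

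DRAM1 had a lower TE from 4 h on, with log2 changes of -0.27 (SE 0.084), -0.47 (SE 0.090) and -0.51 (SE 0.093) at 4, 6 and 19 h. None of these reached 1.5-fold, though the value at 6 h did without the 2 most abundant transcripts with recovered reads (-0.60). The TE calls of TP53INP1 rested on the floor. Its log2 TE change was -0.82, -0.45, -0.83 and -0.95 at 2, 4, 6 and 19 h with the floor, and -0.066, 0.39, 0.012 and -0.11 without it. All 4 values without the floor had 95% counting intervals that held 0. ZMAT3 and SPATA18 stayed within counting error of no TE change at all 4 times. PERP lay between -0.13 and 0.20 and EI24 between -0.24 and 0.15.

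**Figure D3:**
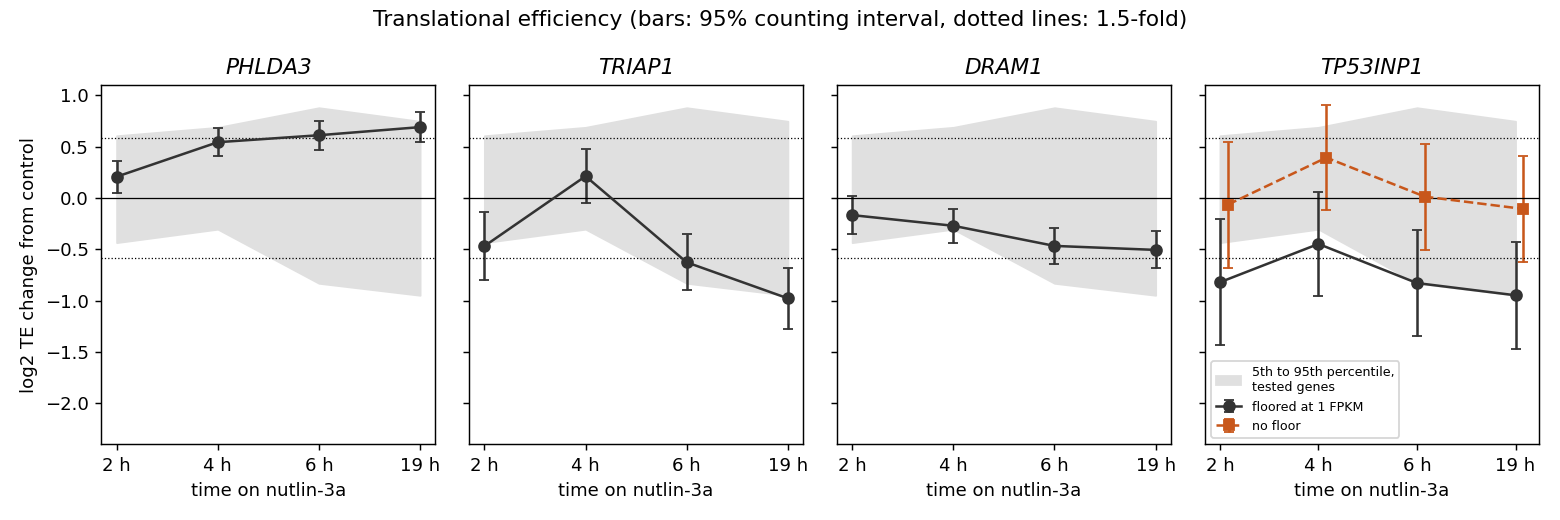
Log2 TE change from the control at 2, 4, 6 and 19 h for PHLDA3, TRIAP1, DRAM1 and TP53INP1, with 95% counting intervals, over the 5th to 95th percentile of 7015 tested genes (grey) and lines at 1.5-fold (dotted). PHLDA3 reaches 0.69 and TRIAP1 -0.98 at 19 h, and for TP53INP1 the values without a floor (squares) lie around 0.

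Next, 5 lists of related genes were set beside the 8, for which the shares of all tested genes given above (2.49% higher and 7.1% lower in RNA at 19 h, 6.22% and 14.9% in density) and the median of -0.067 in RNA are the background. TNFRSF10D is on both of the first 2 lists. Among other death effectors of p53, 17 of 29 listed genes were tested. At 19 h 10 of the 17 were called higher in RNA and none lower, with a median log2 change of 1.21, and in density 7 were higher and none lower. The largest RNA rises were in TP53I3, an oxidoreductase (14.6-fold), CYFIP2, a partner of the WAVE complex (13.1-fold), and BBC3, the BH3-only protein PUMA (7.29-fold). The lowest were SIVA1 (0.571-fold), CASP6 (0.858-fold) and BID (0.870-fold), a BH3-only protein, none of which passed 2-fold.

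Of other p53 effectors of survival and arrest, 33 of 39 listed genes were tested. In RNA at 19 h 22 were called higher and 1 lower, with a median of 1.45, and in density 22 were higher and none lower. BTG2, an antiproliferative gene, was 25.3-fold the control, CDKN1A, the cell-cycle inhibitor p21, 19.2-fold, and MDM2 17.5-fold. The gene called lower was HBEGF, a growth factor of the EGF family, at 0.450-fold. GADD45B and BTG1 were at 0.782-fold and 0.875-fold.

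Autophagy and lysosome genes, the setting of DRAM1, EI24 and TP53INP1, held no tested gene with a called RNA change. ATG4A, not tested because its Ribo-Seq level stayed under 5 FPKM, went from 5.02 to 11 FPKM in RNA at 6 h (log2 change 1.13). None of the 36 tested genes, of 46 listed, was called in RNA at 19 h in either direction, and their median log2 change was 0.20. WIPI1, a phosphoinositide-binding protein of early autophagosomes, came closest with 1.99-fold. SQSTM1, the cargo receptor p62, was 1.82-fold and GABARAPL1, an ATG8 protein, 1.63-fold. The lowest were ATG3, ATG5 and PIK3R4, at 0.794-fold, 0.807-fold and 0.810-fold. In density 2 genes of this list were higher and 2 lower. DRAM1, with 2.38-fold in RNA, lay above all 36.

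Relatives and partners of the 8 genes (the TP53INP, PHLDA, ZMAT, PRELID and DRAM families and their partner proteins) had a median log2 RNA change of 0.0053 at 19 h. Of 20 tested genes, out of 29, 1 was called higher and none lower. That gene was TMEM150A, a membrane protein, at 2.09-fold. It reached 5 FPKM only at 19 h (6.96 in RNA-Seq and 5.23 in Ribo-Seq), so it was tested only through its rise. TP53INP2, the paralog of TP53INP1, was 1.24-fold the control, where TP53INP1 was 11.6-fold. AKT1, the kinase that PHLDA3 restrains, was at 0.582-fold, and PRELID1, the lipid transfer partner of TRIAP1, at 0.695-fold. TMEM47 was at 1.22-fold.

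Of 12 desmosome genes, the complex to which PERP belongs, only 3 were tested. PKP4 was called lower, with 0.472-fold at 19 h. JUP, or plakoglobin, was 1.45-fold and DSP, or desmoplakin, 1.69-fold, after RNA changes past 2-fold at 4 and 6 h (log2 change 1.03 and 1.1). In density at 19 h DSP was called higher (log2 change 1.65) and PKP4 lower (-1.47). PERP RNA, at 1.09-fold, lay between PKP4 and JUP.

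**Figure D4:**
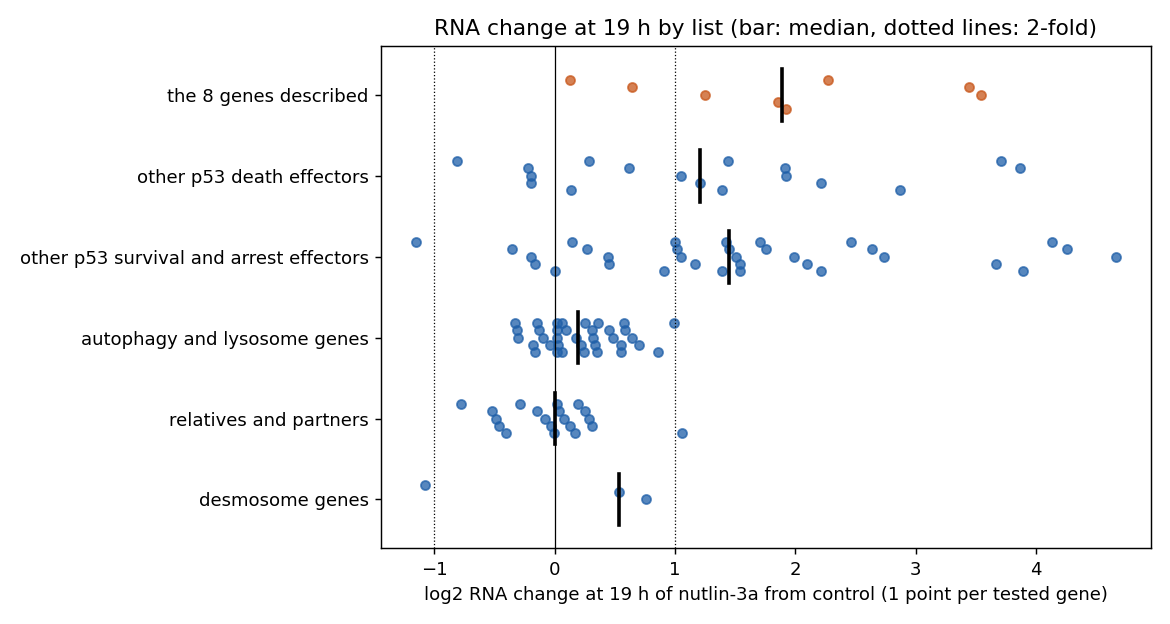
Log2 RNA change at 19 h of nutlin-3a from the control, 1 point per tested gene, for the 8 genes described and for 5 lists of related genes, with bars at the medians and dotted lines at 2-fold. The 8 genes (median 1.89) and the other p53 effectors (medians 1.21 and 1.45) spread far to the right, and the 36 autophagy and lysosome genes all lie within 2-fold.

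The genes whose pattern was most like that of each member were found by Pearson's r over the 10 libraries, after the mean of each assay was removed. Such values describe these libraries, since all genes share their depth and their control. TP53INP1 was most like MDM2 (r = 0.991) and the repair gene XPC (0.987), and PHLDA3 was most like BTG2 (0.991) and the death receptor TNFRSF10B (0.984). SPATA18 was most like CYFIP2 (0.995) and FDXR (0.995), a mitochondrial reductase. ZMAT3 was closest to CSDA (0.991), a cold-shock domain protein, and EFNB1 (0.986), an ephrin. TRIAP1 was closest to C12orf5 (0.985), the metabolic regulator TIGAR, and BLOC1S2 (0.982). DRAM1 was closest to FBXO22 (0.983) and XPC (0.974), and EI24 to LYPLA2 (0.991) and AC139099.1 (0.99). The RNA of PERP spanned 0.19 on the log2 scale, too little for this comparison.

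Promoter windows were read from RefSeq (GRCh38.p14, from 250 bases before to 50 after each start) for 6 of the 8 genes, with a pair of windows for ZMAT3, and searched on the sense strand for the p53 consensus half-site, which reads the same on either strand. Of 35116 windows in all 6.63% held it. Among the 7 windows of these genes it was in 1, that of EI24, where its last base lies next to the start. The 100 bases before the start are shown for EI24, for SPATA18, with the largest RNA rise of the 6, and for PERP, with the smallest. Capitals mark the half-site.
EI24, chr11:125569377-125569476, plus strand: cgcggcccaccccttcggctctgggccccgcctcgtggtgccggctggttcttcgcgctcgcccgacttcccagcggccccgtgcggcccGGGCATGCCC
SPATA18, chr4:52051204-52051303, plus strand: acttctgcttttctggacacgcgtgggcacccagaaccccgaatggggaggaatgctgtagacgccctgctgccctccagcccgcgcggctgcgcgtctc
PERP, chr6:138107420-138107519, minus strand: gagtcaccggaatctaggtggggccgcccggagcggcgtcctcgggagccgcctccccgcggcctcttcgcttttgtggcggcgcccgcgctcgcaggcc
The gene with the half-site was 1.57-fold the control in RNA at 19 h, while SPATA18 was 10.8-fold and PERP 1.09-fold. A match is a run of letters and no evidence of binding, and p53 sites farther from a start or within introns lie outside these windows.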

How the data were processed

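RNA-Seq (poly(A) RNA, 5 libraries) and Ribo-Seq (5 libraries) of BJ cells were grouped by the assay and time in the labels. The authors aligned reads with Bowtie to protein-coding transcripts of Ensembl release 65, 1 isoform per gene, and kept unique hits; the submitters' processing notes name hg19. The authors deposited FPKM values with 3 decimals. The table named for both assays was read as RNA-Seq. The methods describe coding-sequence reads for Ribo-Seq, but for the 8 genes a single length per transcript fitted the values of both assays. That length was fitted to both assays at once, not to each. Ratios of the assays were therefore not compared between genes, and Ribo-Seq levels of different genes may depend on untranslated length. The authors describe a control of the same sequencing run for each condition; the labels name no run, so which of these libraries shared one was not used here.

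FPKM was floored at 1, and log2 changes are relative to the control of the assay. A tested gene reached 5 FPKM in 1 or more libraries of RNA-Seq and also of Ribo-Seq, and calls were 2-fold (RNA, density) or 1.5-fold (TE). Whole reads were recovered for 99.7% of 11258 transcripts, and in simulated data for all 10 libraries (11258 transcripts) reads were exact for 99.9% of the transcripts decided. PCR copies were not distinguished, and intervals cover counting error. All members are named. Of each list the 3 largest and the 3 smallest RNA changes at 19 h among tested genes are named, except 1 that is not reported here, and the 2 most alike genes of each member whose RNA spanned at least 1 on the log2 scale. Members and lists were chosen with earlier results of these data known. Python 3.11.15, numpy 2.4.6, pandas 2.3.3 and matplotlib 3.10.9 were used.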

Additional observations from a re-analysis of the deposited data

Results flagged for a closer look

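EI24 moved in opposite directions at 2 h and at the later times, in both assays, each beyond its 95% counting interval. Its log2 RNA change was -0.128 at 2 h against 0.422 at 4 h, 0.98 at 6 h and 0.647 at 19 h. Its log2 density change was -0.372 at 2 h against 0.568, 0.752 and 0.529 at 4, 6 and 19 h. The signs were the same after the median change of all tested genes was subtracted. At 2 h 21.8% of tested genes had a lower change than EI24 in RNA and 9.94% in density, so such falls were not rare. The difference between times was not tested, as each time held 1 library of an assay and all times share the control.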

How the results depend on the processing

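The counts of genes past the fold changed by more than 1.5 times under some alternatives. A mean of at least 20 FPKM in each assay kept 4 of the 8 genes. RNA was then called higher for 2 genes at 4, 6 and 19 h (6 in the report). The shares of tested genes were 1.55%, 1.36% and 1.97%. Density was called higher for 2 at 4 h, 2 at 6 h and 1 at 19 h (5, 5 and 4 in the report). Here the shares were 1.86%, 5.61% and 7.12%. A floor of 5 FPKM left 3 genes called in density at 4 h (5 in the report), against 1.72% of tested genes. A sliding cut-off, set by the local SD of genes of like level, called 3 genes in RNA at 2 h, TP53INP1, ZMAT3 and PHLDA3, against 0 at 2-fold and 3.55% of tested genes. TE calls changed most, and the share of tested genes called at the same setting is given in brackets. At 2 h, against 1, there were 0 with a floor of 5 FPKM (5.62%) or a pseudocount of 1 FPKM (5.22%). There were also 0 with a mean of at least 20 FPKM (5.69%) or no floor (7.17%). Without the 2 most abundant transcripts with recovered reads there were 2 (7.34%). At 4 h, against 0, there were 2 with a floor of 5 FPKM (8.81%) and 1 against the 2 h library (12.3%). Centring on the median of tested genes also gave 1 at 4 h (5.79%). At 6 h, against 3, there were 0 against the 2 h library (14.5%) and 0 with the sliding cut-off (6.94%). At 19 h, against 3, there were 0 against the 2 h library (12.8%) and 1, TRIAP1, with the sliding cut-off (7.54%). Calls were also exchanged where counts moved less. Against the 2 h library PHLDA3 RNA was below 2-fold at 6 h (0.963) and 19 h (0.913), as was DRAM1 at 4 h (0.844) and 6 h (0.89), while EI24 passed it at 6 h. With a floor of 5 FPKM TP53INP1 was not called in density at any time, nor SPATA18 at 4 h in either assay. A pseudocount of 1 FPKM ended the calls of DRAM1 RNA (0.983) and SPATA18 density (0.941) at 4 h. Without a floor, chosen after seeing the data, the log2 TE change of TP53INP1 at 6 h went from -0.83 to 0.0117. Of the changes of single genes, no other called one reversed its sign under any alternative run.

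Depth limits TP53INP1 and SPATA18 in Ribo-Seq most, with 37 and 57 reads in the control. No paired analysis was possible because each group held 1 library, and no group had a library to leave out.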
